A study of Mus musculus with 4 samples.

Results

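The comparison was between 2 single-cell libraries of prepubertal mouse ovary, one from mice given doxorubicin and one from mice given doxorubicin together with anti-Müllerian hormone (AMH). All 6406 cells kept from the doxorubicin library and all 6983 from the doxorubicin with AMH library entered it, 13389 of the 30523 cells kept in the series. Cells were kept where they held at least 1000 unique molecular identifiers (UMIs, each standing for 1 captured transcript) with at most 20% of them from mitochondrial genes, and their counts were summed over each library and within cell classes set by marker genes. Doxorubicin was given at 3 mg/kg as 2 weekly doses from postnatal day 25, and AMH was recombinant human AMH at 0.75 mg/kg. The study asks whether AMH changes the ovary's response to doxorubicin. The strain and the timing of the AMH doses are not given in the sources used here. The other 2 libraries came from mice given PBS or saline (control) and from mice given AMH alone, and they are used here as a second, separate AMH contrast. Each library held 1 ovary from each of 5 mice, pooled, collected 4 hours after the second doxorubicin dose, so there was 1 library a group and the spread between animals is not known. No test between groups was possible. The 95% intervals printed here come from the exact binomial distribution of the counts and cover counting error only.

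AMH is a ligand of the transforming growth factor β family that is made by granulosa cells of growing follicles. It binds AMHR2 together with a type 1 receptor of the bone morphogenetic protein (BMP) family, and the signal passes through SMAD1, SMAD5 and SMAD8 to targets such as the Id genes and the inhibitory Smad6 and Smad7. In the ovary AMH is known for holding back primordial follicle recruitment and for lowering the follicles' response to FSH. Doxorubicin, an anthracycline, blocks topoisomerase 2 and breaks DNA, and the p53 pathway answers such breaks by raising genes of cell-cycle arrest and death such as Cdkn1a, Mdm2 and Bax. Granulosa cells surround the oocyte, theca cells lie outside them and make androgen from cholesterol, and fibroblast-like stroma, smooth muscle, vessels and immune cells fill the rest of the ovary.

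Expression is given as CPM, the count of a gene scaled to the total of its class sum, in the order control, doxorubicin, doxorubicin with AMH, AMH. The ratio is log2 of doxorubicin with AMH over doxorubicin after adding 5 CPM to both, and a gene was compared where its mean over the 2 libraries was at least 20 CPM. A gene is called past 2-fold where this ratio reached 1 or -1. The 4 libraries held 136519795 to 177237504 UMIs in kept cells, with a median of 11266 to 15492 UMIs per cell and median mitochondrial shares of 4.77% to 4.97%. The doxorubicin and doxorubicin with AMH libraries shared 7 cell barcodes, and the 6 pairs of libraries shared 7 to 22. Of 18 classes with markers, 9 held at least 50 cells in both libraries and were compared. They are called granulosa-like and so on, since the names rest on markers alone, and the score limits of the gate were set after the data had been seen. Granulosa-like, theca-like and stroma-like cells were present in every library, as the label ovary implies, but oocytes were nearly absent: 4 oocyte-like cells in the doxorubicin library and 0 of 6983 cells with AMH added, which allows a share of up to 0.0430% (3 counts of the total). A 70-micron filter was used when the cells were made, and oviduct epithelium was uneven: 138 oviduct-like cells in the control library, 1 with doxorubicin, 22 with doxorubicin and AMH, and 152 with AMH.

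Several small classes took a lower share of the cells when AMH was added to doxorubicin than with doxorubicin alone, while the intervals for the granulosa-like and stroma-like shares included 0. Granulosa-like cells made up 24.4%, 30.8%, 32.6% and 33.6% of the 4 libraries, and the log2 ratio of the shares of doxorubicin with AMH over doxorubicin was 0.08 (95% interval -0.01 to 0.17). Stroma-like cells made up 36.4%, 35.0%, 36.6% and 31.2% (log2 ratio 0.06, -0.02 to 0.14). Blood endothelial-like cells went from 150 to 73 (2.34% to 1.05%, log2 ratio -1.16, -1.59 to -0.75), and the AMH library also held a lower share, 1.31%, than the control library, 2.47%. Adventitial fibroblast-like cells, the Clec3b and Dpt fibroblasts that wrap vessels and the organ's edge, went from 178 to 96 (log2 ratio of the shares -1.02, -1.39 to -0.65). Surface epithelial-like cells went from 93 to 43 (log2 ratio -1.24, -1.79 to -0.70). T or NK lymphocyte-like cells went the other way, from 18 to 55 (log2 ratio 1.49, 0.70 to 2.34), and smooth muscle-like cells from 370 to 485 (0.27, 0.07 to 0.47). Their shares in the 4 libraries were 0.606%, 0.281%, 0.788% and 0.363% for the lymphocytes and 8.29%, 5.78%, 6.95% and 7.20% for smooth muscle, so doxorubicin alone was the lowest for both and the AMH library lay below control. All of these shares rest on 1 pool of 5 ovaries a group, and the oviduct-like share given above differed between the pools too. Its part in the other shares was not tested. Cells that met no class took 7.60% of the doxorubicin library and 10.1% of the library with AMH.

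In granulosa-like cells, 36 of 6621 genes (0.544%) lay past 2-fold between the 2 libraries, 7 higher with AMH (0.106%) and 29 lower (0.438%). The median ratio over all 6621 genes was -0.03. The same contrast without doxorubicin, AMH over control, shares no library with this one. There 28 of the same genes (0.423%) lay past 2-fold, 7 higher (0.106%) and 21 lower (0.317%). All 7 genes higher with AMH on doxorubicin were also above 0 in AMH over control, 5 of them past 2-fold, and all 29 lower genes were below 0, 15 of them past 2-fold. Across the 6621 genes the 2 ratios had a Pearson correlation of 0.68, a description over genes that are not independent and that share the depth of their libraries. Leaving out the 3 cells with most UMIs of each gene kept 7 of the 7 and 27 of the 29 genes past 2-fold. Markers of the gate itself also moved from doxorubicin to both agents. Kctd14 went from 302 to 84.5 CPM, Foxl2 from 102 to 64.1 CPM and Gatm from 65.1 to 43.6 CPM. Inha went up from 2284 to 3499 CPM and Hsd17b1 from 391 to 683 CPM, and the other markers of the gate moved less. The part of a different mix of granulosa cells in the results was not tested.

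**Figure D1:**
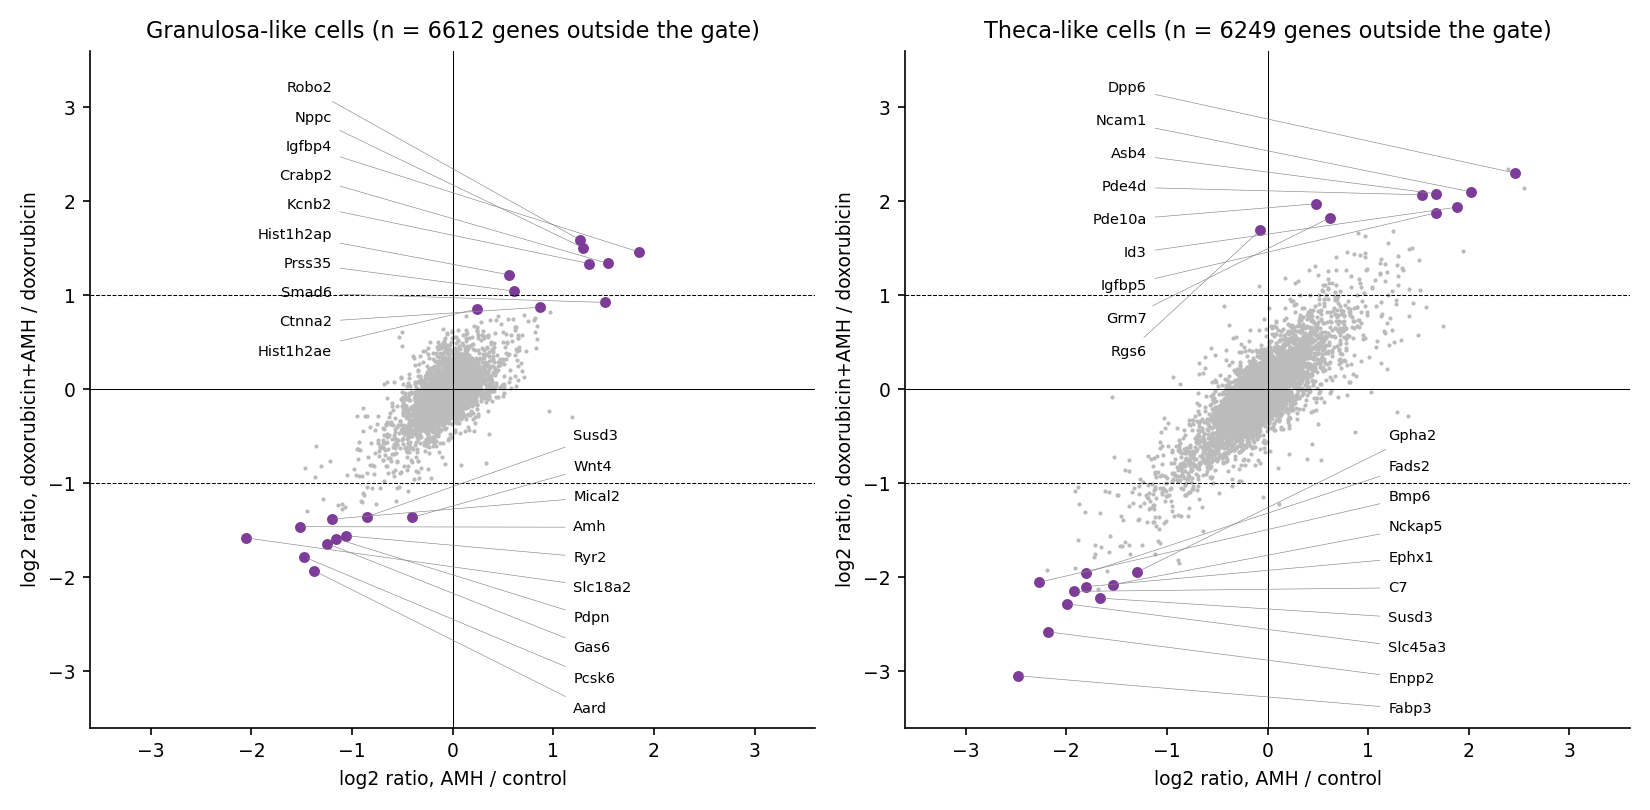
Each grey point is a gene in granulosa-like cells (left, 6612 genes outside the gate) or theca-like cells (right, 6249 genes), plotted by its log2 ratio of AMH over control (x) and of doxorubicin with AMH over doxorubicin (y). Purple points are genes among the 10 highest and 10 lowest named by rule and the dashed lines are 2-fold. In both classes the lowest named genes, such as Aard at -1.93 and Fabp3 at -3.05 on the y axis, lie at the lower left.

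In granulosa-like cells Nppc, the precursor of the C-type natriuretic peptide that keeps the oocyte in meiotic arrest, was at 83.4, 99.2, 291 and 212 CPM (log2 ratio 1.51, 1.47 to 1.55). Robo2, a receptor for Slit guidance ligands, was at 126, 96.0, 299 and 311 CPM (1.59, 1.55 to 1.63). Igfbp4, which binds insulin-like growth factors, was at 23.3, 23.5, 73.3 and 97.2 CPM (1.46, 1.39 to 1.53). In each of these 3 genes both libraries with AMH lay above both libraries without it. Crabp2, which carries retinoic acid inside the cell, was at 37.6, 47.1, 127 and 119 CPM (1.34, 1.28 to 1.40). Kcnb2, a voltage-gated potassium channel, was at 76.6, 74.6, 196 and 204 CPM (log2 ratio 1.34). Prss35, a serine protease-like protein of the follicle, was at 22.5, 16.7, 39.8 and 37.0 CPM (log2 ratio 1.04). Both libraries with AMH were again the higher ones. The histone gene Hist1h2ap was at 81.4, 34.0, 85.8 and 122 CPM (log2 ratio 1.22), with the doxorubicin library the lowest. Its 3′ end is nearly identical to those of other histone genes, and the counting could divide reads among them. Just under 2-fold lay Ctnna2, an α-catenin of cell junctions, at 250, 166, 308 and 459 CPM (log2 ratio 0.87).

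Among the 29 granulosa genes that fell, AMH's own gene was one. Amh was at 140, 206, 71.5 and 45.7 CPM (log2 ratio -1.46, -1.51 to -1.42). The highest level was that of the doxorubicin library, and both libraries with AMH lay below both without it. At a fixed 2000 UMIs per cell, Amh was detected in 16.0%, 21.4%, 9.93% and 7.73% of granulosa-like cells, and before thinning in 45.9%, 50.1%, 34.5% and 30.1%. In macrophage-like cells, which should lack Amh, the thinned shares were 0.616% to 1.21%. Median depths were 23715 and 22754 UMIs in granulosa-like cells of the doxorubicin and doxorubicin with AMH libraries, and 7118 and 11207 in macrophage-like cells. Aard was the lowest of all, at 42.8, 61.9, 12.6 and 13.4 CPM (log2 ratio -1.93, -2.01 to -1.85). Pcsk6, a proprotein convertase that activates growth factors of the transforming growth factor β family, was at 64.2, 64.8, 15.3 and 19.8 CPM (log2 ratio -1.78). Gas6, the ligand of the TAM receptor kinases, was at 212, 250, 76.7 and 86.4 CPM (log2 ratio -1.64). These genes showed the libraries with AMH low and the doxorubicin library at or above the control library. The list went on with Slc18a2, the vesicular monoamine transporter, at 273, 252, 80.8 and 62.0 CPM (log2 ratio -1.58). Pdpn, a membrane glycoprotein, was at 37.0, 39.3, 9.74 and 13.9 CPM (-1.59), and Ryr2, a calcium release channel, at 46.2, 48.5, 13.2 and 19.6 CPM (-1.56). Wnt4, a ligand needed for ovary formation, was at 72.7, 108, 38.9 and 53.7 CPM (log2 ratio -1.36, -1.42 to -1.30). For Wnt4 the ratio of AMH over control was -0.40, and the doxorubicin library was the highest of the 4. Mical2, an enzyme that oxidises actin, was at 39.1, 34.5, 10.2 and 14.2 CPM (log2 ratio -1.38), and Susd3 at 36.7, 58.2, 19.8 and 18.2 CPM (-1.35).

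The direct readouts of the SMAD branch were higher with AMH in granulosa-like cells but none passed 2-fold. Of 9 listed BMP/SMAD targets 5 passed the filter, and all 5 were above 0 with a median of 0.60, beside -0.03 over all genes. Smad6, which blocks BMP receptor signals, was at 29.6, 31.9, 65.1 and 93.9 CPM (log2 ratio 0.92). Smad7, the second inhibitory SMAD, was at 88.1, 91.7, 144 and 138 CPM (0.63). Id2, an inhibitor of helix-loop-helix factors, was at 193, 186, 286 and 344 CPM (0.60). In all 3 both libraries with AMH lay above both without. Id1 was at 202, 181, 216 and 213 CPM (0.25) and Id3 at 414, 414, 459 and 438 CPM (0.15), which are small steps. Thinned to 2000 UMIs, Id2 was detected in 26.5%, 26.6%, 34.5% and 38.5% of granulosa-like cells (71.7% and 80.3% with doxorubicin and with both agents before thinning). In erythroid-like cells, which should hold little Id2, the thinned shares were 6.49%, 2.27%, 6.10% and 11.7%, at median depths of 3977 to 6553 UMIs against 18426 to 24063 in granulosa-like cells. Those shares were lower than in granulosa-like cells in every library, and both libraries with AMH were above the doxorubicin library there too. The median of the list was 0.31 when every cell was given equal weight.

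**Figure D2:**
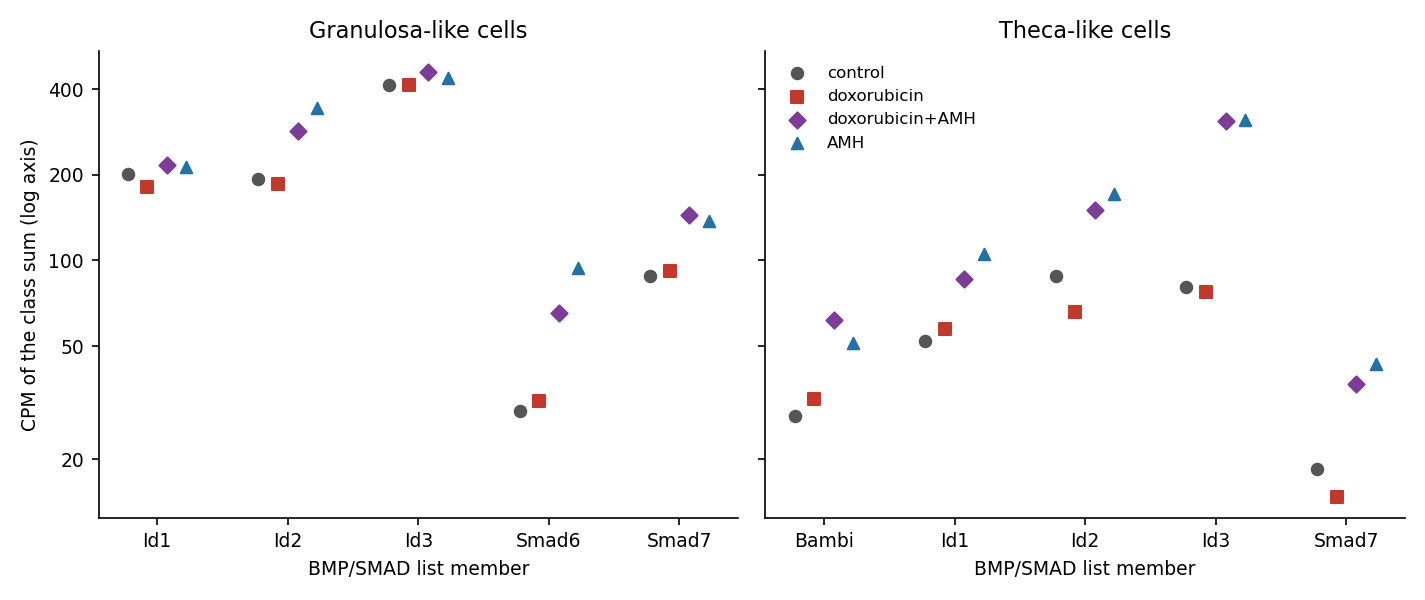
Level of each BMP/SMAD list member that passed the filter, in CPM of the class sum on a log axis, in granulosa-like (left) and theca-like cells (right), 1 marker per library. In theca-like cells Id3 stands at 77.2 CPM with doxorubicin and 309 CPM with AMH added, and in granulosa-like cells at 414 and 459 CPM.

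The receptors themselves moved little. All 8 genes listed as AMH receptors and SMADs passed the filter in granulosa-like cells, 3 were above 0, none lay past 2-fold and the median was -0.07. Amhr2, the receptor that only AMH uses, was at 118, 135, 93.9 and 102 CPM (log2 ratio -0.50). Bmpr1b was by UMIs the most abundant type 1 receptor at 1248, 1070, 1076 and 1149 CPM (0.01), and Bmpr1a was at 167, 156, 148 and 165 CPM (-0.08). Bmpr2, a type 2 receptor shared by BMPs and activins, was at 722, 565, 680 and 742 CPM (0.26). Compared between genes, these levels are not per transcript length, because the kit counts 3′ ends.

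Other follicle hormones moved in different directions. Of the 14 genes listed as granulosa hormones and growth factors, 3 belong to the granulosa gate and are left out, and of the rest 11 passed, 7 above 0, with a median of 0.19. The gene past 2-fold upward was Nppc and the one downward Amh. Inhba, which codes for the activin and inhibin βA subunit, was at 503, 604, 1026 and 888 CPM (log2 ratio 0.76). Inhbb, the βB subunit, was at 182, 224, 320 and 238 CPM (0.50), and Fst, follistatin, which binds activins, at 663, 613, 953 and 729 CPM (0.63). For Inhba both libraries with AMH were the high ones, whereas for Fst the library with both agents stood above the other 3. Cyp19a1, aromatase, was at 17.2, 14.9, 27.6 and 21.9 CPM (0.71). Ihh, the hedgehog ligand that granulosa cells send to theca cells, was at 34.8, 56.3, 31.2 and 21.1 CPM (-0.76), and Dhh, the other ligand, had a ratio of -0.29. Kitl had a ratio of -0.08, Bmp2 of 0.07 and Esr2 of 0.19.

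In the insulin-like growth factor list, 7 of 10 genes passed and 6 were above 0, with a median of 0.20. Igfbp4, given above, was the one past 2-fold. Igfbp5 was at 75.5, 68.4, 33.1 and 64.3 CPM (log2 ratio -0.95), low only in the library with both agents, and Igf1 was at 152, 135, 199 and 172 CPM (0.54). Igf1r had a ratio of 0.02. All 7 axon guidance genes that passed were above 0 with a median of 0.43, beside a median of 0.07 for the same genes in AMH over control. Robo2 was the one past 2-fold, and Plxna2, a semaphorin coreceptor, was at 70.5, 48.1, 87.1 and 118 CPM (0.80). Collagen and matrix genes were lower, 1 of 13 above 0 with a median of -0.33, and cholesterol synthesis genes had 7 of 10 above 0 with a median of 0.19. The 10 apoptosis genes that passed had a median of 0.07, and 1 lay past 2-fold. It was Bcl2, which blocks mitochondrial cell death, at 46.2, 32.1, 11.6 and 15.9 CPM (log2 ratio -1.16, -1.25 to -1.07). Its relative Bcl2l1 was at 27.2, 25.0, 16.6 and 18.2 CPM (-0.47). Both libraries with AMH were low for both genes. Bcl2 shares exon sequence with a gene on the other strand, and whether the counting used strand is not given in the sources used here.

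Mitotic genes were higher with AMH on doxorubicin than with doxorubicin alone in granulosa-like cells. All 37 of the 45 G2/M phase genes that passed the filter were above 0, with a median of 0.45 and a range from 0.04 (Tmpo) to 0.67 (Ube2c), and none lay past 2-fold. Over all genes 41.5% were above 0. Their summed level was 2908, 2872, 3997 and 2934 CPM, so the library with both agents stood above the other 3. In AMH over control 14 of the 37 were above 0 with a median of -0.02. Ube2c, which tags mitotic cyclins for destruction, was at 136, 148, 239 and 158 CPM. Top2a, topoisomerase 2α, the target that doxorubicin blocks, was at 226, 208, 306 and 214 CPM (log2 ratio 0.55). Mki67, the proliferation antigen, was at 105, 93.4, 128 and 87.7 CPM (0.44). These 3 genes had the library with both agents highest and the other 3 close together. Hmgb2 was at 360, 361, 558 and 427 CPM (0.62), and Birc5, survivin, at 73.4, 70.8, 110 and 70.5 CPM (0.60). At 2000 UMIs per cell, 28.1%, 28.9%, 39.1% and 33.4% of granulosa-like cells held at least 5 UMIs of the list, against 7.21%, 8.22%, 7.55% and 6.28% of stroma-like cells. In adventitial fibroblast-like cells the shares were 2.18%, 10.7%, 2.10% and 2.37%, and in macrophage-like cells 8.49%, 9.45%, 20.1% and 9.22%. Unthinned, those shares were 92.4%, 91.7%, 91.9% and 87.9% of granulosa-like cells. S phase genes had 23 of 28 above 0 with a median of 0.14.

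Genes of the p53 response were barely lower with AMH in granulosa-like cells. Of 32 listed targets 12 passed, 3 were above 0, none lay past 2-fold, and the median was -0.09 (-0.17 over all 32 with no filter). Cdkn1a, the arrest gene p21, was at 11.7, 44.1, 23.5 and 16.0 CPM (log2 ratio -0.78), and Ccng1, cyclin G1, at 14.1, 30.0, 23.0 and 17.0 CPM (-0.32). For both genes the library with both agents lay between doxorubicin and control. Mdm2, which degrades p53, had a ratio of -0.20 and Rps27l of 0.11.

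Theca-like cells gave the largest count of the 4 major comparisons, but their gate weighs on it. In cells gated by 9 markers, 6 of them on the steroid synthesis list, 206 of 6257 genes (3.29%) lay past 2-fold, 79 higher (1.26%) and 127 lower (2.03%), with a median over all genes of -0.04. In AMH over control 179 of the same genes (2.86%) lay past 2-fold, 61 higher (0.975%) and 118 lower (1.89%), and 77 of the 79 and 126 of the 127 had the same sign there. The steroid genes were themselves lower with AMH, and cells within 0.05 of the score limit made up 5.07% of the class with doxorubicin and 22.3% with AMH added. A second gate left out the steroid enzymes and used the hedgehog targets Ptch1, Hhip and Gli1 with Fdx1, the electron carrier adrenodoxin. Its markers moved too. Fdx1 is on the steroid synthesis list, and in cells of the first gate it went from 3949 to 2923 CPM with AMH added. In those cells Ptch1 went from 82.3 to 121 CPM, Hhip from 54.7 to 110 CPM and Gli1 from 6.83 to 19.0 CPM. The second gate found 327 and 407 cells (5.11% and 5.83%) in the doxorubicin and doxorubicin with AMH libraries, of which 151 and 162 were in both gates. With it 65 of 6488 genes lay past 2-fold, 23 higher and 42 lower. Its cells held 6944 and 4016 CPM of theca markers and 2128 and 2525 CPM of stroma markers in the 2 libraries, with median depths of 27629 and 25777 UMIs. Luteal markers were at 783 and 448 CPM, granulosa markers at 729 and 760 CPM, smooth muscle markers at 297 and 898 CPM and erythroid markers at 16.5 and 234 CPM. The part of those other cells in the results was not tested, and values from both gates are given below. Mitochondrial genes took 8.29%, 8.17%, 5.95% and 6.58% of the UMIs of theca-like cells of the first gate, lower in both libraries with AMH, against 6.41% to 6.83% in granulosa-like and 4.06% to 4.17% in stroma-like cells. The part of this share in the results was not tested. No share of theca-like cells is compared from the first gate.

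The steroid synthesis list was lower with AMH under either gate. Under the first gate 6 of its 12 genes were outside the gate and passed the filter, 1 above 0 and 2 past 2-fold downward, with a median of -0.67. Nr5a1, the factor SF-1 that switches on steroid genes, was at 172, 178, 79.1 and 84.6 CPM (log2 ratio -1.12), and Srd5a1, steroid 5α-reductase, at 186, 128, 57.9 and 45.8 CPM (-1.08). Both libraries with AMH lay below both without. Fdxr, which passes electrons to the mitochondrial steroid enzymes, was at 371, 360, 189 and 193 CPM (-0.91). Lhcgr, the receptor for luteinising hormone, was at 428, 478, 353 and 449 CPM (-0.43). Under the second gate the steroid enzymes could be read as well. There 10 genes passed, 2 were above 0 and 4 lay past 2-fold downward, with a median of -0.80. Over all 6488 genes the median was -0.03 and 42 lay past 2-fold downward. Cyp17a1, which makes androgens from progestins, was at 1020, 909, 256 and 141 CPM (log2 ratio -1.81, -1.86 to -1.75). Cyp11a1, which cuts the cholesterol side chain, was at 1534, 1328, 399 and 387 CPM (-1.72), and Hsd3b1 at 2315, 2125, 995 and 929 CPM (-1.09). For these 3 enzymes doxorubicin alone was close to control and both libraries with AMH were low. Star, which brings cholesterol into mitochondria, did not follow them, at 228, 136, 152 and 127 CPM (0.16). Cyp11a1 shares 145 bases of exon with a predicted gene on the same strand, and Srd5a1 476 bases, so their counts are less certain.

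Cholesterol synthesis genes, which supply the substrate of steroid synthesis, were lower together. Of 17 listed genes 13 passed under the first gate, none was above 0 and 9 lay past 2-fold downward, with a median of -1.06 (-1.13 in AMH over control). Their summed level was 1995, 2070, 955 and 862 CPM. Hmgcs1, an early enzyme of the mevalonate pathway, was at 405, 391, 178 and 182 CPM (log2 ratio -1.11). Msmo1, which removes methyl groups from sterols, was at 274, 304, 118 and 146 CPM (-1.33), and Fdps, which makes farnesyl diphosphate, at 221, 238, 97.9 and 88.8 CPM (-1.24). In all 3 genes the libraries with AMH were low and doxorubicin alone was close to control. Under the second gate 12 passed, again none above 0, with a median of -0.81, but 1 lay past 2-fold: Msmo1 at 165, 168, 73.7 and 77.6 CPM (-1.14).

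**Figure D3:**
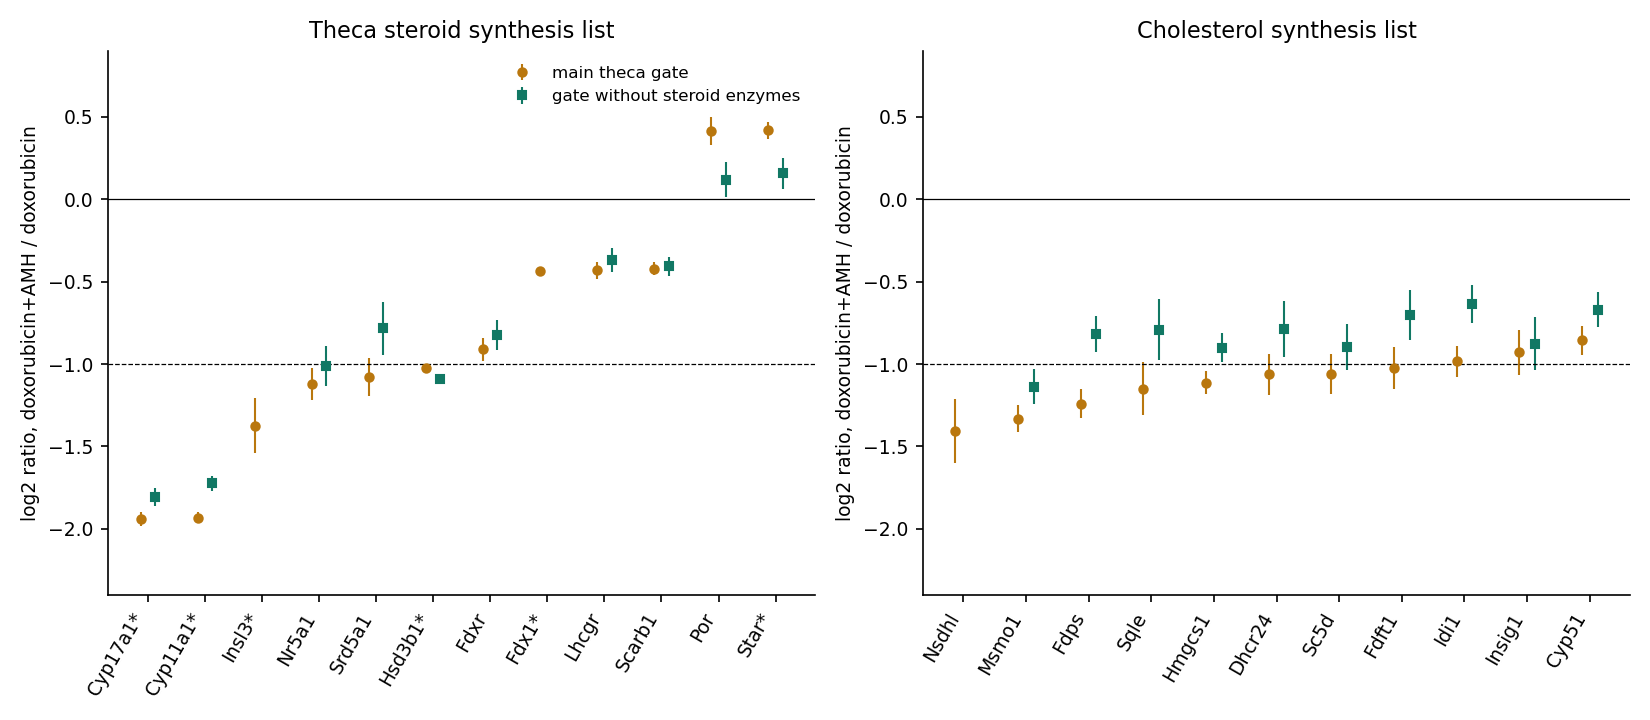
Log2 ratio of doxorubicin with AMH over doxorubicin for members of the steroid synthesis (left) and cholesterol synthesis lists (right) in theca-like cells, with 95% intervals from the counts. Orange circles are cells of the first gate, green squares those of the gate without steroid enzymes, an asterisk marks a gene of the first gate, and the dashed line is 2-fold lower. Cyp17a1 and Cyp11a1 lie at -1.81 and -1.72 under the second gate.

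SMAD targets were higher in theca-like cells. All 5 BMP/SMAD genes that passed were above 0 under both gates, 3 of them past 2-fold under the first with a median of 1.07, and 1 under the second with a median of 0.77. Id3 was at 80.9, 77.2, 309 and 311 CPM under the first gate (log2 ratio 1.94, 1.86 to 2.02) and at 224, 187, 372 and 366 CPM under the second (0.98, 0.90 to 1.05). Id2 was at 87.9, 65.9, 150 and 171 CPM under the first (1.13, 1.04 to 1.23) and at 76.3, 43.3, 126 and 128 CPM under the second (1.44). Smad7 was at 18.5, 14.8, 36.6 and 43.4 CPM under the first gate (1.07, 0.90 to 1.25), and its ratio under the second was 0.77. For all 3 genes both libraries with AMH stood above both without, under either gate for Id2 and Id3. Bambi, a decoy receptor that dampens BMP and activin signals, was at 28.5, 32.5, 61.6 and 51.4 CPM (0.83), and Id1 at 52.1, 57.5, 85.8 and 106 CPM (0.54). Smad6 did not pass the filter in this class, at 3.45, 3.58, 14.1 and 18.7 CPM. Thinned to 2000 UMIs, Id3 was detected in 12.7%, 12.6%, 39.2% and 38.7% of theca-like cells of the first gate, at median depths of 21900 to 25424 UMIs (63.6% and 86.2% with doxorubicin and with both agents before thinning). In erythroid-like cells the thinned shares for Id3 were 8.95%, 12.0%, 14.1% and 18%. The theca-like share with doxorubicin was thus close to this background, the 2 theca-like shares with AMH were above it, and the background itself was higher in the libraries with AMH. Stroma markers, summed, went from 875 CPM with doxorubicin to 1520 CPM with AMH added in those cells, and theca markers from 13803 to 7072 CPM. Their part in the result was not tested.

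The highest and lowest theca genes outside these lists differed in how far they depended on the gate. Fabp3, a fatty acid carrier, was the lowest at 684, 743, 85.6 and 118 CPM (log2 ratio -3.05, -3.14 to -2.96), and under the second gate at 296, 249, 32.1 and 39.0 CPM (-2.77). Nckap5 was at 681, 743, 172 and 232 CPM (-2.08, second gate -2.17). Bmp6, a BMP ligand, was at 102, 80.0, 15.5 and 17.0 CPM (-2.05, second gate -1.85). For these 3 genes the libraries with AMH were low under both gates. Ephx1, an epoxide hydrolase, was at 209, 232, 50.4 and 56.0 CPM (-2.10, second gate -1.74), and Fads2, a fatty acid desaturase, at 419, 489, 123 and 117 CPM (-1.95, second gate -1.67). Enpp2, autotaxin, was at 46.8, 41.8, 2.84 and 6.43 CPM (-2.58), and under the second gate at 11.6 CPM with doxorubicin and 2.13 CPM with both agents, below the filter. Slc45a3 was at 124, 111, 18.8 and 27.5 CPM (-2.28), C7, a complement protein, at 64.9, 74.0, 12.8 and 13.5 CPM (-2.15), and Susd3 at 139, 188, 36.4 and 40.4 CPM (-2.22). Gpha2 was at 31.7, 41.8, 7.14 and 9.89 CPM (-1.95).

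Of the 10 highest theca genes, Pde10a, an enzyme that degrades cyclic nucleotides, kept its ratio best. Pde10a was at 781, 332, 1318 and 1094 CPM (log2 ratio 1.97, 1.93 to 2.01), and under the second gate at 544, 275, 880 and 505 CPM (1.66). The doxorubicin library was the low one under both gates, and the ratio of AMH over control was 0.48 under the first and -0.11 under the second. Rgs6, a brake on G-protein signals, was likewise lowest with doxorubicin and highest with both agents: 82.1, 37.7, 133 and 77.6 CPM (1.69, second gate 1.24). Asb4, a ubiquitin ligase adaptor, was at 36.6, 35.1, 164 and 128 CPM (2.08, second gate 1.50), and Pde4d, another phosphodiesterase, at 52.4, 37.3, 172 and 161 CPM (2.07, second gate 1.11). Under the second gate the ratios of AMH over control were -0.08 for Asb4 and 0.06 for Pde4d, and the doxorubicin library was the lowest for both. Igfbp5 was at 11.3, 6.65, 37.8 and 46.9 CPM (1.88, second gate 1.47). Dpp6, a potassium channel subunit, went from 2.30 to 0.72 between the gates, Ncam1, a neural adhesion molecule, from 2.10 to 0.94, and Grm7, a glutamate receptor, from 1.83 to 0.51. Schwann cell markers went from 7.02 to 51.3 CPM in cells of the first gate, and their part in the result was not tested.

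Matrix and growth factor lists were higher in theca-like cells of the first gate. Of the collagen and matrix genes 14 of 19 were above 0, 2 past 2-fold, with a median of 0.49, and under the second gate 11 of 20 with a median of 0.08. Of the insulin-like growth factor genes 6 of 7 were above 0 with a median of 0.64, and under the second gate 7 of 8 with a median of 0.39. Igfbp7 was at 788, 909, 1751 and 1520 CPM under the first (log2 ratio 0.94), and its ratio was 0.24 under the second. The p53 list had 2 of 13 above 0 with a median of -0.24 (second gate 3 of 16, -0.31). Cdkn1a was at 11.4, 74.8, 44.4 and 14.1 CPM (-0.69). Plk2, a kinase that p53 also raises, went against the list at 24.0, 25.1, 57.8 and 39.0 CPM (1.06, second gate 0.46).

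The p53 response differed most between the 2 libraries in adventitial fibroblast-like cells. There 279 of 6349 genes (4.39%) lay past 2-fold, 103 higher (1.62%) and 176 lower (2.77%), with a median over all genes of 0.06. In AMH over control 21 of the same genes did (0.331%). Of 32 listed p53 targets 22 passed the filter, 1 was above 0 and 17 lay past 2-fold downward. Their median was -1.95, and in AMH over control it was -0.07. The summed level of the 22 genes was 1511, 6234, 1931 and 1640 CPM, so doxorubicin alone stood apart and the library with both agents lay near the control and AMH libraries. The filter let in genes that were high with doxorubicin, and the class held 178 and 96 cells.

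The Cdkn1a promoter is printed because Cdkn1a is the arrest gene of this list and its upstream bases hold the consensus that p53 is known to bind. The search was chosen after the values had been seen. It took the p53 consensus, a pair of 10-base sites with an intact core, at most 13 bases apart with at most 2 mismatches, on both strands. Of the 17 genes past 2-fold, 15 had a promoter entry, and the windows of 3 (Bax, Cdkn1a and Rps27l) held a match, as did 1.75% of all 32851 windows of 250 bases. The window of Cdkn1a, the bases before the start that RefSeq gives, is at chr17:29090729-29090978 on the plus strand (GRCm38.p6, RefSeq), and capitals mark the sites of its 2 matches, which share bases.
Cdkn1a: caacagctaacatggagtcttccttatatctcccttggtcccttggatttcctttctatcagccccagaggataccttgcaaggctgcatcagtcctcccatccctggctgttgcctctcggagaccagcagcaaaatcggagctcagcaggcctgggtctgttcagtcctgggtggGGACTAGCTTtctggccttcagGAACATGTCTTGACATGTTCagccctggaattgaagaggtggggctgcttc
The first match started 73 bases before the gene's start, with a spacer of 12 bases and 0 mismatches. No match in the other windows says only that these letters are not in those bases.

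Arrest and damage genes led the list. Cdkn1a was at 112, 1481, 338 and 159 CPM (log2 ratio -2.12, -2.27 to -1.97). Ccng1 was at 25.0, 275, 19.2 and 21.2 CPM (-3.53), and Sesn2, a stress-induced regulator of growth signals, at 5.25, 72.9, 5.01 and 5.81 CPM (-2.96). Doxorubicin alone was high in each. For Ccng1 and Sesn2 the library with both agents was no higher than control, and for Cdkn1a it was above control. Mdm2 was at 36.4, 317, 29.2 and 32.8 CPM (-3.23). Trp53inp1, which promotes p53-dependent death and autophagy, was at 18.8, 229, 20.9 and 15.8 CPM (-3.18), and Zmat3, an RNA-binding p53 target, at 8.64, 76.2, 12.5 and 9.96 CPM (-2.21). Gdf15, a stress hormone, was at 2.47, 133, 3.34 and 0.83 CPM, with UMIs in 49 cells of the doxorubicin library and 4 of the library with both agents (-4.05). Polk, a DNA polymerase that bypasses damage, was at 21.6, 75.9, 15.9 and 17.4 CPM (-1.95).

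Death genes of the list behaved in the same way. Bax, which opens the mitochondrial membrane, was at 50.9, 246, 60.2 and 47.7 CPM (log2 ratio -1.95). Bbc3, the death activator PUMA, was at 8.02, 38.8, 7.52 and 9.55 CPM (-1.81), and Fas, the death receptor, at 24.4, 63.7, 27.6 and 20.8 CPM (-1.08). Eda2r, a receptor of the tumour necrosis factor family, was at 18.8, 258, 31.8 and 21.2 CPM (-2.84). In these 4 genes doxorubicin alone was the highest and the other 3 libraries lay close together. Phlda3, which restrains Akt, was at 58.0, 245, 91.1 and 52.3 CPM (-1.38), Rps27l at 236, 861, 319 and 240 CPM (-1.42), Ei24 at 36.7, 226, 43.4 and 34.0 CPM (-2.25) and Aen, a nuclease, at 7.10, 76.9, 9.19 and 4.15 CPM (-2.53). Ak1 was at 10.5, 67.0, 14.2 and 9.96 CPM (-1.91). Of the 5 that did not reach 2-fold, Btg2, an antiproliferative gene, was at 650, 1235, 710 and 753 CPM (-0.79), and Plk2, Rrm2b and Ercc5 had ratios of -0.90, -0.40 and -0.37. Sesn1 alone was above 0, at 56.2, 36.1, 46.0 and 59.3 CPM (0.31).

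**Figure D4:**
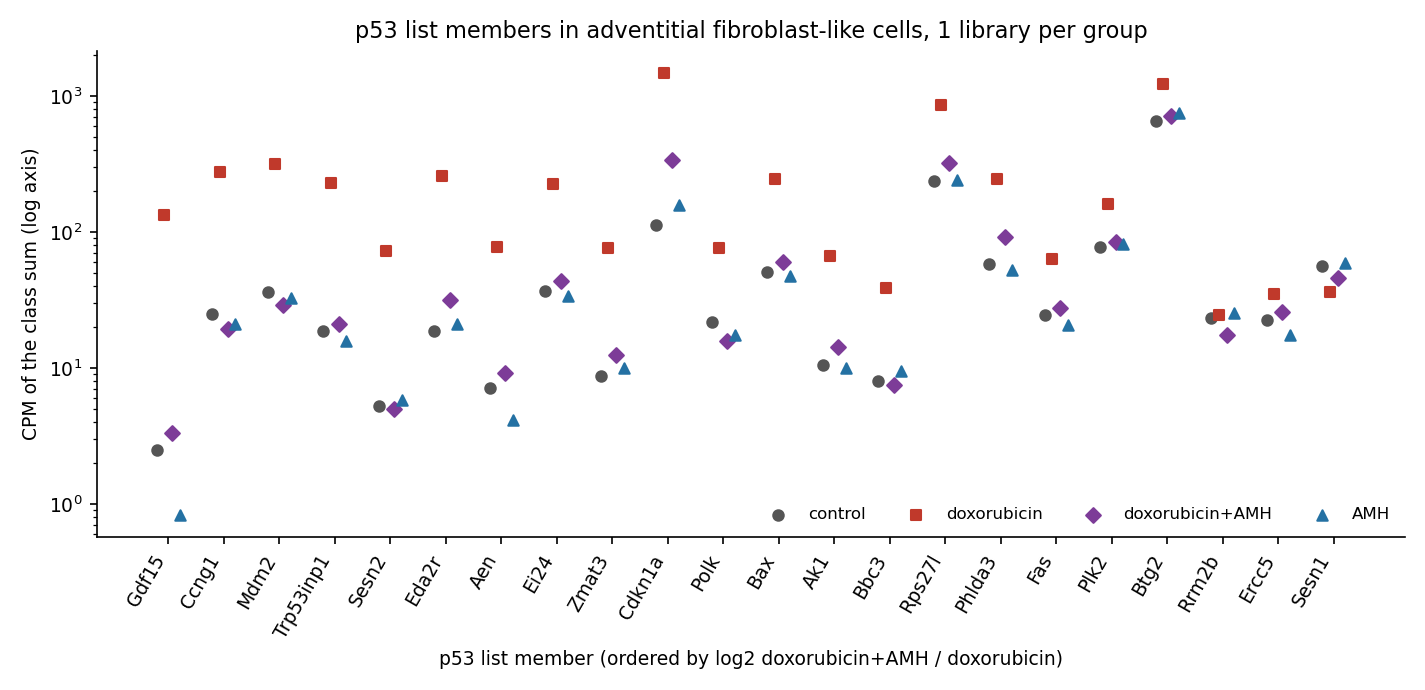
Level of the 22 p53 list members that passed the filter in adventitial fibroblast-like cells, in CPM of the class sum on a log axis, ordered by the log2 ratio of doxorubicin with AMH over doxorubicin. Each marker is 1 library. The doxorubicin marker stands above the other 3 for all genes but Sesn1 and Rrm2b, for example 1481 CPM against 112 to 338 CPM for Cdkn1a.

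The difference was spread over most cells of the class. The median over cells of the summed p53 list was 1439, 5736, 1952 and 1551 CPM, and the 10th to 90th percentiles were 2417 to 10377 CPM with doxorubicin and 1030 to 3391 CPM with both agents. Above the 90th percentile of the control cells, 2687 CPM, lay 155 of 178 cells with doxorubicin (87.1%, exact interval 81.2% to 91.6%) and 22 of 96 with both agents (22.9%, 15.0% to 32.6%). In the AMH library 28 of 198 cells (14.1%) did. Thinned to 2000 UMIs, Cdkn1a was detected in 18.1%, 78.9%, 37.0% and 23.2% of the cells, and unthinned in 56.4%, 97.8%, 70.8% and 54.6%, at median depths of 12682, 16228, 10918 and 11432 UMIs. Ccng1 was detected after thinning in 38.1% of the cells with doxorubicin and in 4.54% of the control cells and fewer of the other 2 libraries. In erythroid-like cells, which should hold little of either, the thinned shares were 1.10% to 4.43% for Cdkn1a and 0% to 1.13% for Ccng1, at median depths of 3977 to 6553 UMIs. Leaving out the 3 highest cells of each gene gave a list median of -2.25. The cells' own markers, summed, were at 7777 CPM with doxorubicin and 6934 CPM with both agents, and stroma markers at 15712 and 16421 CPM.

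**Figure D5:**
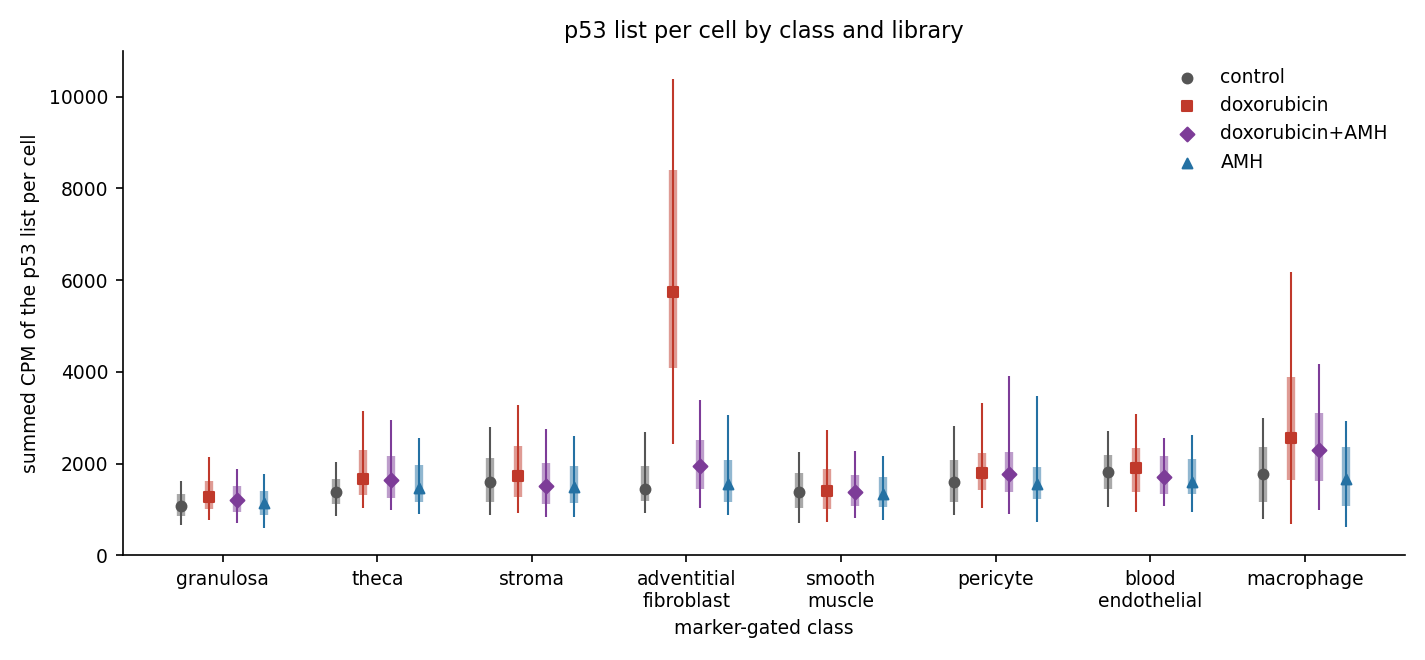
Summed CPM of the p53 list per cell by class and library: the marker is the median over cells, the thick bar the 25th to 75th percentile and the thin line the 10th to 90th. Adventitial fibroblast-like cells with doxorubicin have a median of 5736 CPM, against 1952 CPM with both agents, and in granulosa-like cells the 2 medians are 1267 and 1200 CPM.

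Other genes of adventitial fibroblast-like cells had as large a step. Ckap2, a protein of the mitotic spindle, was at 6.17, 239, 8.35 and 2.49 CPM (log2 ratio -4.19, -4.77 to -3.57), with UMIs in 120 cells with doxorubicin and 9 with both agents. Nek3, a kinase, was at 1.54, 138, 5.01 and 2.91 CPM (-3.83, 76 and 4 cells). Ano3, of the anoctamin family, was at 0.309, 124, 2.51 and 0 CPM (-4.10, 65 and 2 cells). All 3 were high with doxorubicin alone. Ckap2 and Nek3 are neighbours on chromosome 8, minus strand, at 22168160 to 22185819 and 22128283 to 22166435 (GRCm38), a position seen after their values. The interferon response list had 1 of 12 above 0, 4 past 2-fold downward and a median of -0.55. Irf7, the master regulator of type 1 interferon genes, was at 9.57, 40.1, 12.5 and 6.64 CPM (-1.36), and Ifit3, an antiviral effector, at 8.33, 59.5, 22.6 and 4.57 CPM (-1.23). Isg15, a ubiquitin-like protein, was at 22.5, 101, 61.0 and 9.96 CPM (-0.69). The BMP/SMAD list had 5 of 6 above 0, none past 2-fold, with a median of 0.39. Genes higher with AMH rested on few cells, and 53 of the 103 stayed past 2-fold without the 3 highest cells, against 172 of the 176 lower ones. Hsd17b1, a granulosa steroid enzyme, was at 10.2, 6.57, 66.0 and 35.7 CPM (2.62), with 59.5% of its UMIs in 3 cells. Granulosa markers in the class went from 450 to 644 CPM, and their part in the result was not tested.

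In the other classes given here the median of the p53 list was nearer to 0, and it was below 0 in all but erythroid-like cells. In stroma-like cells 15 of 32 passed, 3 were above 0 and 1 lay past 2-fold, with a median of -0.30. It was Cdkn1a, at 32.7, 135, 62.8 and 41.3 CPM (log2 ratio -1.05, -1.12 to -0.98). Ccng1 was at 12.9, 40.0, 19.1 and 14.6 CPM (-0.91) and Eda2r at 10.7, 40.8, 22.5 and 12.0 CPM (-0.74). In each the library with both agents lay between doxorubicin and control. In macrophage-like cells, 90 and 84 in number, 3 of 18 were above 0 and 4 lay past 2-fold downward with a median of -0.60, beside 174 of 6339 genes past 2-fold in that class (2.74%), 57 higher (0.899%) and 117 lower (1.85%). Phlda3 was at 10.4, 79.3, 26.4 and 12.8 CPM there (-1.43), Ccng1 at 28.4, 138, 62.9 and 30.7 CPM (-1.07) and Cdkn1a at 283, 849, 481 and 178 CPM (-0.81). In smooth muscle-like cells 3 of 15 were above 0 with a median of -0.22, and Cdkn1a was the one past 2-fold at 36.0, 105, 46.9 and 36.3 CPM (-1.08). The medians in blood endothelial-like and pericyte-like cells were -0.27 and -0.16, and the pericyte-like one was above 0 without the 3 highest cells of each gene. In erythroid-like cells 5 passed and 3 were above 0, with a median of 0.18 beside 0.68 over all genes. Differences between classes were not tested, since each class has 1 library a group.

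Stroma-like cells had the smallest share of genes past 2-fold of the 9 classes. Of 6666 genes 5 lay past 2-fold (0.0750%), 1 higher (0.0150%) and 4 lower (0.0600%), with a median over all genes of -0.04, and the higher one is a predicted gene model. In AMH over control 23 of the same genes did (0.345%). Lrat, which stores retinol as esters, was the lowest at 35.6, 52.7, 19.3 and 19.3 CPM (log2 ratio -1.25, -1.36 to -1.14). Shroom3, which bends epithelial sheets through actin, was at 62.7, 74.6, 30.6 and 41.1 CPM (-1.16), and 3 cells gave 23.0% of its UMIs in the doxorubicin library. Cdkn1a, given above, was another of the 4. Both libraries with AMH were low for Lrat. Highest after the predicted model, and under 2-fold, were Prxl2a at 25.5, 23.0, 49.9 and 78.8 CPM (0.97), the chemokine Cxcl1 at 31.2, 25.8, 53.6 and 56.7 CPM (0.93), Fst at 17.7, 16.8, 34.1 and 41.1 CPM (0.84) and Inha, the inhibin α subunit, at 80.4, 87.2, 151 and 209 CPM (0.76). Granulosa markers in the class were at 694 and 722 CPM with doxorubicin and with both agents, smooth muscle markers at 1013 and 1560 CPM, theca markers at 570 and 663 CPM and adventitial fibroblast markers at 454 and 361 CPM. Their part in the results was not tested. Collagen and matrix genes had 1 of 21 above 0 with a median of -0.26, and G2/M genes 1 of 29 with a median of -0.14. The BMP/SMAD list had 4 of 5 above 0 and a median of 0.07, with Id2 at a ratio of 0.14 and Id1 at 0.00. That median fell below 0 with a stricter marker gate and with every cell given equal weight.

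Smooth muscle-like cells, with 24 of 6513 genes past 2-fold (0.368%; 0.200% higher and 0.169% lower), had mitotic genes higher and the mural gene Rgs5 lower with AMH. Of the 45 listed G2/M genes 13 passed, all were above 0 and 4 lay past 2-fold, with a median of 0.35 beside -0.03 over all genes. The filter let in genes that were high with both agents, so the direction of such members is not independent of it. Ube2c was at 10.2, 8.21, 44.8 and 20.3 CPM (log2 ratio 1.92), Mki67 at 12.1, 8.88, 31.1 and 15.9 CPM (1.38) and Top2a at 21.6, 22.4, 61.9 and 41.7 CPM (1.29). The library with both agents was the highest for each. At 2000 UMIs, 4.44% and 5.79% of the cells with doxorubicin and with both agents held at least 5 UMIs of the G2/M list, and unthinned 75.1% and 78.1%. Pcp4, a calmodulin regulator, was at 37.5, 5.53, 113 and 39.3 CPM (3.49, 5 and 43 cells). Fst was at 29.5, 24.5, 66.8 and 58.0 CPM (1.29). Rgs5, a marker of mural cells, was at 75.2, 115, 23.4 and 46.4 CPM (-2.08) and Crip1 at 145, 267, 80.2 and 90.5 CPM (-1.68). Pericyte markers in the class went from 244 to 104 CPM, blood endothelial markers from 109 to 37.2 CPM, granulosa markers from 556 to 706 CPM and erythroid markers from 28.1 to 67.7 CPM, and their part in the result was not tested.

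Blood endothelial-like cells went the other way for mitosis. In this class 105 of 7017 genes lay past 2-fold (1.50%), 72 higher (1.03%) and 33 lower (0.470%). None of 27 G2/M genes was above 0 and 11 lay past 2-fold downward, with a median of -0.97, beside -0.01 over all genes. Their summed level was 2758, 2428, 1383 and 1630 CPM, so both libraries with AMH were the low ones, and the median in AMH over control was -0.71. At 2000 UMIs, 15.9% and 11.6% of the cells with doxorubicin and with both agents held at least 5 UMIs of the list, and unthinned 82.0% and 79.5%. The lowest genes, Hbb-bs, a globin, at 19.2, 849, 12.8 and 215 CPM, and Fabp4, a fatty acid carrier of capillaries, at 443, 1051, 30.8 and 359 CPM, had most of their UMIs in few cells. For Fabp4 3 cells gave 79.0% of those of the doxorubicin library. Erythroid markers went from 1140 to 16.3 CPM in the class, smooth muscle markers from 336 to 880 CPM, granulosa markers from 261 to 512 CPM, stroma markers from 615 to 941 CPM, pericyte markers from 555 to 756 CPM and the cells' own markers from 5152 to 4231 CPM, and their part in the result was not tested.

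Macrophage-like and pericyte-like cells were few, and their highest and lowest genes rested on few cells. In macrophage-like cells Cxcl9, an interferon-induced chemokine that draws T cells, was at 61.7, 11.5, 381 and 243 CPM, with UMIs in 3 cells with doxorubicin and 15 with both agents (log2 ratio 4.55). Lyve1, a hyaluronan receptor of vessel-side macrophages and lymphatics, was at 31.7, 75.9, 5.10 and 27.1 CPM, and Fcna, ficolin A, at 30.6, 103, 1.70 and 25.1 CPM (log2 ratio -4.02). The doxorubicin library was the low one for Cxcl9 and the high one for the other 2 genes. Lymphatic endothelial markers in the class went from 96.5 to 10.2 CPM, granulosa markers from 892 to 487 CPM, theca markers from 235 to 359 CPM and T or NK lymphocyte markers from 47.1 to 90.1 CPM, and their part in the result was not tested. Of 7010 genes in pericyte-like cells, 61 and 56 in number, 220 lay past 2-fold (3.14%), 77 higher (1.10%) and 143 lower (2.04%), and 29 and 57 of these stayed there without the 3 highest cells. In these pericyte-like cells theca markers went from 1552 to 459 CPM, erythroid markers from 1086 to 14.3 CPM, luteal markers from 265 to 77.9 CPM, blood endothelial markers from 354 to 177 CPM, granulosa markers from 467 to 884 CPM and smooth muscle markers from 1592 to 2826 CPM. Their part in the result was not tested. In erythroid-like cells 656 of 2270 genes (28.9%) lay past 2-fold, 643 higher (28.3%) and 13 lower (0.573%), and the median over all genes was 0.68, while erythroid markers themselves went from 777347 to 629777 CPM. Granulosa markers in the class went from 315 to 1146 CPM, stroma markers from 307 to 810 CPM, adventitial fibroblast markers from 22.2 to 186 CPM, surface epithelial markers from 6.66 to 152 CPM and smooth muscle markers from 251 to 94.7 CPM. Their part in these counts, and in the background shares taken from this class above, was not tested.

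Summed over all cells, 35 of 6912 genes (0.506%) lay past 2-fold, 7 higher (0.101%) and 28 lower (0.405%), and the median over all genes was -0.03. In AMH over control 39 of the same genes did (0.564%). In such sums fewer cells of a type and less RNA per cell cannot be told apart. The highest were granulosa genes: Nppc at 37.5, 48.7, 152 and 112 CPM (log2 ratio 1.55), Crabp2 at 17.1, 23.8, 67.5 and 65.4 CPM (1.33) and Kcnb2 at 48.8, 44.7, 108 and 126 CPM (1.18). The lowest were theca genes, with Cyp17a1 at 323, 284, 43.1 and 19.1 CPM (-2.59), Cyp11a1 at 585, 511, 89.1 and 75.9 CPM (-2.45) and Fabp3 at 149, 155, 30.0 and 34.8 CPM (-2.19). When the doxorubicin with AMH library was given the class mix of the doxorubicin library, Cyp17a1 was at -1.88, Cyp11a1 at -1.81 and Fabp3 at -2.04. The 10 steroid synthesis genes that passed were all below 0, with a median of -0.69 and of -0.32 with that class mix. The theca-like class of that mix was gated by steroid genes, Cyp17a1 and Cyp11a1 among them, and these were lower with AMH. Fewer theca cells and less of these genes per cell thus cannot be told apart with it. Serpina5 was at 46.3, 42.8, 9.80 and 9.38 CPM (-1.69). Cd74, the class II invariant chain, and H2-Eb1, a class II β chain, were low with doxorubicin. Cd74 was at 107, 32.5, 72.1 and 87.1 CPM (1.04) and H2-Eb1 at 49.1, 13.4, 33.7 and 40.9 CPM (1.07, 21.9% of the UMIs with doxorubicin in 3 cells). With the class mix of the doxorubicin library their ratios were 0.78 and 0.85, under 2-fold. The p53 list had 2 of 15 above 0 and a median of -0.28, with Cdkn1a at 31.8, 142, 48.4 and 31.9 CPM (-1.46, and -1.36 with that class mix).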

How the data were processed

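Dissociated ovary was sequenced with the 10x Genomics 3′ v3.1 kit on a NovaSeq S4, 1 library from 5 pooled mice for each of the 4 groups, aiming at 10000 cells each, per the labels. The deposited values are UMI counts per gene and cell, made with Cell Ranger 7.0.0 per the file headers. The build mm10, R 4.2.0 and Seurat 4.1.0 are named in the submitters' processing notes. The annotation, intron counting and strand setting are not given in the sources used here, and neither is the route of injection. The deposited barcodes numbered 9202, 7141, 7818 and 9478 for control, doxorubicin, doxorubicin with AMH and AMH.

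Kept cells (at least 1000 UMIs, at most 20% mitochondrial) were given to 1 of 18 classes by the mean of log-scaled marker levels (per 10000 UMIs, divided by the 90th percentile): a score of at least 0.25 (0.4 for adventitial fibroblasts), a lead of 0.05 over the next class and at least 3 markers seen. Counts were summed per library and class, scaled to CPM and compared as log2 ratios with 5 CPM added, where the 2 libraries averaged 20 CPM or more. No p-values were computed, since each group is 1 library. The ratios were run on simulated counts that held counting error alone, which cannot show how they behave with spread between cells or animals. Named genes are the 10 highest and 10 lowest in all cells, granulosa-like, theca-like and stroma-like cells and 4 and 4 in other classes, without genes of the class's gate, mitochondrial genes and predicted models, together with list members, and a few of these are not reported here. The members and the 18 gene lists were chosen with earlier results of these data known. Of 190 named genes, 29 share at least 100 exon bases with another counted gene and 4 have a near-identical 3′ end elsewhere. Scrublet, with its automatic threshold, marked 349, 6, 0 and 0 cells, so no doublets were removed, and removing the highest scores is an alternative. Alternatives were other scaling, filters, pseudocount, cell limits, gates, cell weights and class mix. Tools were Python 3.11.15, numpy 2.4.6, pandas 2.3.3, scipy 1.17.1, scanpy 1.11.5 and matplotlib 3.10.9. Promoters came from RefSeq (GRCm38.p6).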

Additional observations from a re-analysis of the deposited data

Results flagged for a closer look

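The 2 AMH contrasts, doxorubicin with AMH over doxorubicin and AMH over control, share no library. In 19 of 206 values of named genes they went opposite ways with both 95% counting intervals clear of 0. The 15 values given here are those where the larger log2 ratio was also at least 1 in size and the smaller at least 0.25, sizes chosen with the values known. The other 4 were Fabp4 (-1.67 and 0.18), H2-Eb1 (1.07 and -0.24) and Id3 (0.18 and -0.02) in all cells and Id4 (0.22 and -0.43) in smooth muscle-like cells. Outside the 206, Mki67 (0.44 and -0.25) and Top2a (0.55 and -0.07) in granulosa-like cells also went opposite ways. In every case the difference between the contrasts was not tested, because each group is 1 library.

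Cdkn1a, the arrest gene, had log2 ratios of -2.12 on doxorubicin and 0.48 without it in adventitial fibroblast-like cells, and of -1.05 and 0.30 in stroma-like cells. In the sum over all cells, Pde10a, a phosphodiesterase, had 1.07 and -0.27, and Cd74, the class II invariant chain, 1.04 and -0.28. In these 4 cases the ratio on doxorubicin stayed past 2-fold without the 3 cells that held most UMIs of the gene (-2.30, -1.08, 1.06 and 1.16).

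In blood endothelial-like cells the globin genes Hbb-bs, Hba-a1 and Hba-a2 had -5.59 and 3.18, -4.57 and 1.66, and -4.33 and 1.65, and without the 3 highest cells the ratios on doxorubicin were -0.03, -0.52 and -0.25. Cnn1, calponin of smooth muscle, had 2.22 and -0.63 there (1.02 without the 3 cells). In pericyte-like cells Fabp4 had -4.33 and 2.47, the histone gene Hist1h1b 3.36 and -0.90, and Plk2 -1.13 and 1.38. In macrophage-like cells Frmd5 had -2.39 and 0.52 and Grm7 2.68 and -0.99. In erythroid-like cells Mylk, myosin light chain kinase, had -1.90 and 1.04 and Ryr2 3.99 and -2.23. Without the 3 highest cells Fabp4 was at -2.69 and, with Cnn1, stayed past 2-fold, while Hist1h1b (0.85), Plk2 (-0.43), Frmd5 (0.74), Grm7 (0.59), Mylk (-0.16) and Ryr2 (0.46) did not.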

How the results depend on the processing

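With 1 library a group the intervals cover counting error only, classes rest on markers whose limits were set after the data had been seen, and small classes rest on few cells. No paired analysis was possible because the labels give no replicate numbers and each group is 1 library. The alternative without the 3 highest cells of each gene was chosen after seeing the data.

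Counts of genes past 2-fold moved with the filter. With no filter they were 77 (all cells, 35 in the report), 65 (granulosa-like, 36), 16 (stroma-like, 5) and 5293 (the other 6 classes together, 1458), and with a 50 CPM filter 18, 17, 3 and 526. Theca-like cells gave 119 with the 50 CPM filter and 65 with the second gate (206 in the report). Stroma-like cells gave 11 with 1 CPM added and 8 with equal cell weight. The other classes gave 697 without the 3 highest cells. Median-of-ratios scaling, which sets each class's median ratio to 0, turned their split from 965 higher and 493 lower to 494 and 594, and that of stroma-like cells from 1 and 4 to 2 and 4. It moved the median of all genes by 0.68 in erythroid-like cells.

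Medians of lists kept their direction except that of the BMP/SMAD list in stroma-like cells (0.07), at -0.06 with the stricter gate and -0.07 with equal weight, and that of the p53 list in pericyte-like cells (-0.16), at 0.04 without the 3 highest cells. The p53 list was at -0.17 in granulosa-like cells with no filter (-0.09 in the report), and in stroma-like cells at -0.21 with no filter and -0.22 with a stricter gate (-0.30). The BMP/SMAD list in granulosa-like cells (0.60) was at 0.64 with median-of-ratios scaling, 0.40 with no filter and 0.31 with equal cell weight. In theca-like cells (1.07) it was at 0.83 with no filter and 0.77 with the second gate, and the stricter gate left under 5 members and gave no value. The steroid list (-0.67) was at -0.46 with the stricter gate, -0.57 with equal weight and -0.60 with the second gate over the same members, and the cholesterol list (-1.06) at -0.74 and -0.81 with the 2 gates. The 7 shares recomputed kept their direction with the other limits on cells, without the highest Scrublet scores and with the stricter gate, except that of stroma-like cells, whose log2 ratio was -0.02 with the stricter gate and 0.06 in the report. The p53 list in adventitial fibroblast-like cells ranged from -2.25 to -1.51.

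Of 206 values of named genes, 136 lay past 2-fold, and 102 of these did so without the 3 highest cells, 118 with equal weight, 121 without the highest Scrublet scores, 97 of 118 with the stricter gate, 16 of 23 with the second theca gate and 15 of 18 with the other class mix. Of all 206, 190 kept their direction without the 3 highest cells, 190 with equal weight, 193 without the highest Scrublet scores, 202 with median-of-ratios scaling and 166 of 179 with the stricter gate. Among values past 2-fold, those that turned sign were Bambi at -0.17 and C3 at -0.37 in erythroid-like cells (stricter gate), Prlr there at 0.33 (Scrublet) and 0.46 (without 3 cells), and Dcstamp at 0.041 in macrophage-like cells (at least 500 UMIs). Frmd5 there was at 1.65 (Scrublet), 0.31 (equal weight) and 0.74 (without 3 cells). In blood endothelial-like cells Hba-a2 was at 0.0301, Hbb-bs at 0.0278 and Kcnq5 at -0.0128 (Scrublet), and Hbb-bs at 0.13 (stricter gate). Hist1h2ap in pericyte-like cells was at -0.0751 (without 3 cells). The causes were not tested.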
